A study of Mus musculus with 6 samples.

Results

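Dopamine and serotonin act on neurons mainly through receptors that couple to G proteins, and the genes of 10 such receptors, Drd1, Drd2, Drd3, Drd4, Drd5, Htr1a, Htr1b, Htr2a, Htr4 and Htr7, are described here by their CpG methylation in the mouse dentate gyrus. All CpG sites from 1 kb upstream of the gene start to the gene end were taken for each gene, with starts and ends from the GENCODE M21 gene records. These regions held 336 of the 890041 measured sites, and the 10 genes were among 25544 genes with at least 1 site. No member had fewer than 3 sites. Drd1 had the fewest (15) and Htr7 the most (63).

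The dentate gyrus is the entry region of the hippocampus and keeps generating neurons in adult mice. It receives dopamine and serotonin fibres from the midbrain. D1-like receptors (Drd1, Drd5) stimulate adenylyl cyclase, whereas D2-like receptors (Drd2, Drd3, Drd4) inhibit it. Among the serotonin receptors, Htr1a and Htr1b inhibit adenylyl cyclase, Htr4 and Htr7 stimulate it and Htr2a acts through phospholipase C. Methylation of CpGs near a gene start is commonly low at genes in CpG-rich sequence, and CpGs in gene bodies are commonly methylated.

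Micro-dissected dentate gyrus of 6 female C57BL/6JRj mice aged 4.5 months was profiled by reduced representation bisulfite sequencing (RRBS), which enriches CpG-rich DNA by cutting at CCGG. The 3 mice of the enriched group (ENR) had lived since 6 weeks of age, for 3 months, in a large cage with toys and tunnels. The 3 age-matched mice of the control group (STD) had stayed in standard cages. The paper states that enriched mice shared an enclosure in a larger group than control mice. Effects of group size or of a shared cage cannot be told apart from enrichment. All mice were of 1 inbred strain and 1 sex, the labels name no transgene or mutation, and the library titles call them middle-aged, although the age label is 4.5 months. Each library came from 1 mouse. The values are the percentages of reads that were methylated at each cytosine. The number of reads behind a value is unknown beyond the minimum of 10 set by the authors, so no counting interval can be given. The tissue was bulk, so a change of methylation within cells and a change in the mix of cells cannot be told apart.

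Stretches at which the housing groups stood apart, or along which methylation changed within a gene, are shown first, chosen after their values were seen. They are the plus strand of GRCm38 (mm10), 5′ to 3′, with the CpGs that had a measured site in capitals. The Drd1 stretch (chr13:54055221-54055333) lies in the intron between the noncoding first exon and the exon with the coding sequence of this minus-strand gene. The Drd2 stretch (chr9:49341160-49341272) lies in the first intron, the Drd3 stretch (chr16:43800135-43800289) and the Drd4 stretch (chr7:141294549-141294636) lie in introns, and the Drd5 stretch (chr5:38320174-38320367) lies in its coding exon.
Drd1 intron: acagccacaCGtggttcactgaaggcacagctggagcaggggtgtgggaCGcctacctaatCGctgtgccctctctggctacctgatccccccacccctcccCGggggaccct
Drd2 intron: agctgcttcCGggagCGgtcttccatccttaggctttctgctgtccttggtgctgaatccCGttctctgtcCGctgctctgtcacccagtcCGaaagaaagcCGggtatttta
Drd3 intron: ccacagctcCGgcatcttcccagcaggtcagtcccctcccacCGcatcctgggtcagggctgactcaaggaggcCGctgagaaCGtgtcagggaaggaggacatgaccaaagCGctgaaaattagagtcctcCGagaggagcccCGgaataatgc
Drd4 intron: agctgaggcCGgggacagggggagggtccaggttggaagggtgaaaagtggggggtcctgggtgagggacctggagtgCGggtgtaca
Drd5 coding exon: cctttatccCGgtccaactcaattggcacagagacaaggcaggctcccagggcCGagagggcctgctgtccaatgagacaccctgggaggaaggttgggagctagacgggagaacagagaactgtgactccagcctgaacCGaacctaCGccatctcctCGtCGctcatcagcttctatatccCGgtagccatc

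The Drd2 stretch held 6 CpGs, all measured, and 10 sites, because a CpG read on each strand counts as 2 sites. The Drd3 stretch held 7 measured CpGs, the Drd1 stretch 4 and the Drd4 stretch 2. The Drd5 stretch held 8 CpGs, of which 7 were measured. All 336 sites of the 10 genes lay on a CpG of the reference.

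The 10 genes were not alike in their level of methylation. Averaged over all sites of a gene and all 6 libraries, the lowest levels were those of Htr1b (1.23%), Drd4 (2.71%) and Htr1a (3.40%). Drd1 (12.1%), Drd2 (13.7%), Htr7 (17.4%), Htr2a (20.6%) and Drd5 (22.3%) were intermediate. Htr4 (37.6%) and Drd3 (44.8%) were the highest. The median over 16119 protein-coding gene regions with at least 3 sites was 9.74%, so Htr1b lay at percentile 8.1 and Drd3 at percentile 85.5 of them. In this order, the library values of neighbouring genes overlapped except between Htr1a and Drd1 and between Drd5 and Htr4. Htr4 and Drd3 overlapped through 1 STD library of Htr4 (40.6%) and 1 ENR library of Drd3 (39.3%).

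**Figure D1:**
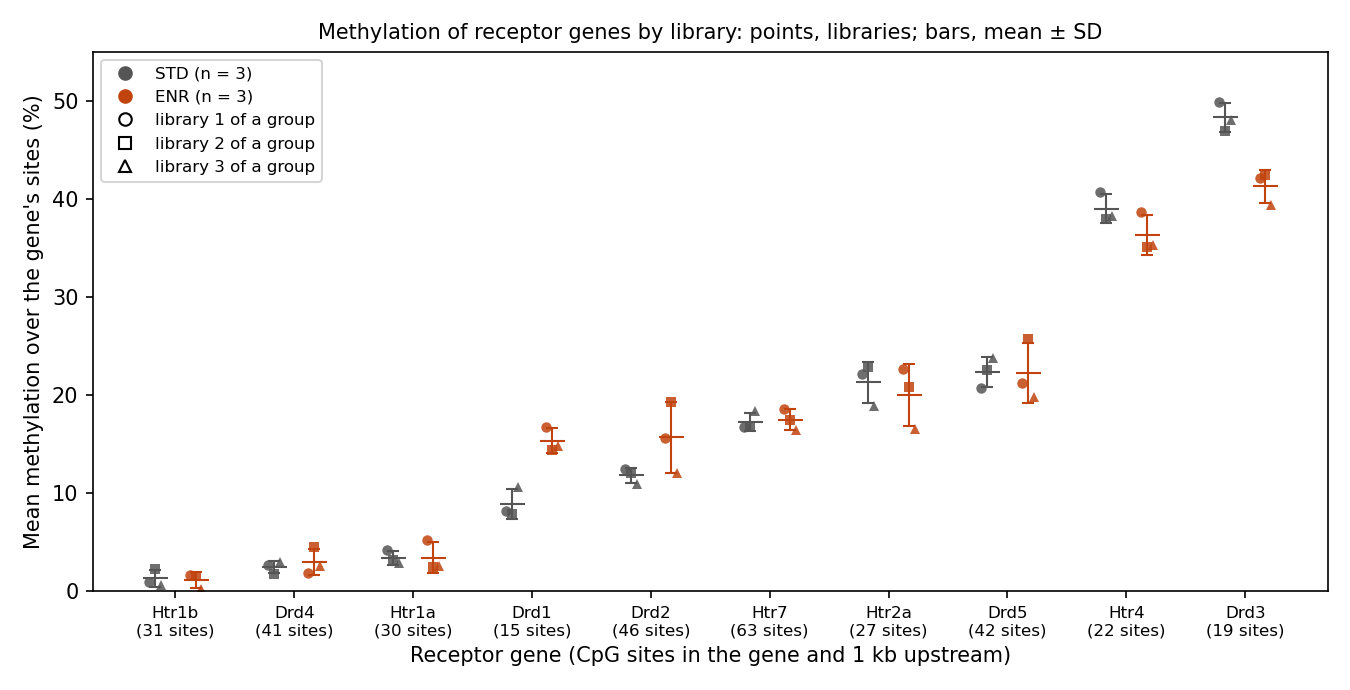
Mean methylation (%) over all CpG sites of each receptor gene, in order of level, for each of the 3 STD and 3 ENR libraries (points) with the group mean ± SD (bars). The groups do not overlap for Drd1, where ENR libraries lie higher, and Drd3, where they lie lower.

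Sites near a gene start were lower than sites farther away. Within 1 kb of the start there were 220 sites, with a mean of 7.88% ± 0.181 in STD and 8.74% ± 0.915 in ENR (SD, n = 3 each). The 116 sites farther away had a mean of 30.7% ± 0.604 in STD and 29.7% ± 3.0 in ENR (SD, n = 3 each). Drd3, the most methylated gene, had 2 of its 19 sites near the start, and Htr1b, the least methylated, had 30 of 31. Drd4 and Htr1a were exceptions. Drd4 had 40 of its 41 sites farther than 1 kb from the start and a mean of 2.62% over these 40. In Htr1a the 10 sites farther away averaged 3.65% and the 20 sites near the start 3.27%. By feature, the median site mean was 0.913% in the 5′ UTR (64 sites), 0.853% upstream (68), 2.11% in coding exons (84), 9.74% in introns (105) and 13.2% in the 3′ UTR (15). These classes hold different genes. In coding exons the mean was 2.13% for Drd4 (37 sites) and 2.01% for Htr7 (19), and 67.7% for Drd5 (13) and 80.1% for Htr4 (4).

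Most sites were nearly unmethylated. A mean under 10% was found at 240 of the 336 sites (71.4%, against 63.7% of all measured sites), and 105 sites were at 0 in every library (31.2%, against 29.8%). Means between 10% and 90% were found at 75 sites (22.3%, against 25.2%) and means over 90% at 21 (6.25%, against 11.1%). Levels went with the local density of CpGs. The 201 bases around a site held a median of 16 CpGs where methylation was under 10%, of 5 where it was between 10% and 90% and of 3 where it was over 90%. Across the 336 sites, which share fragments and libraries, Spearman's rho between CpG number and methylation was -0.624.

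**Figure D2:**
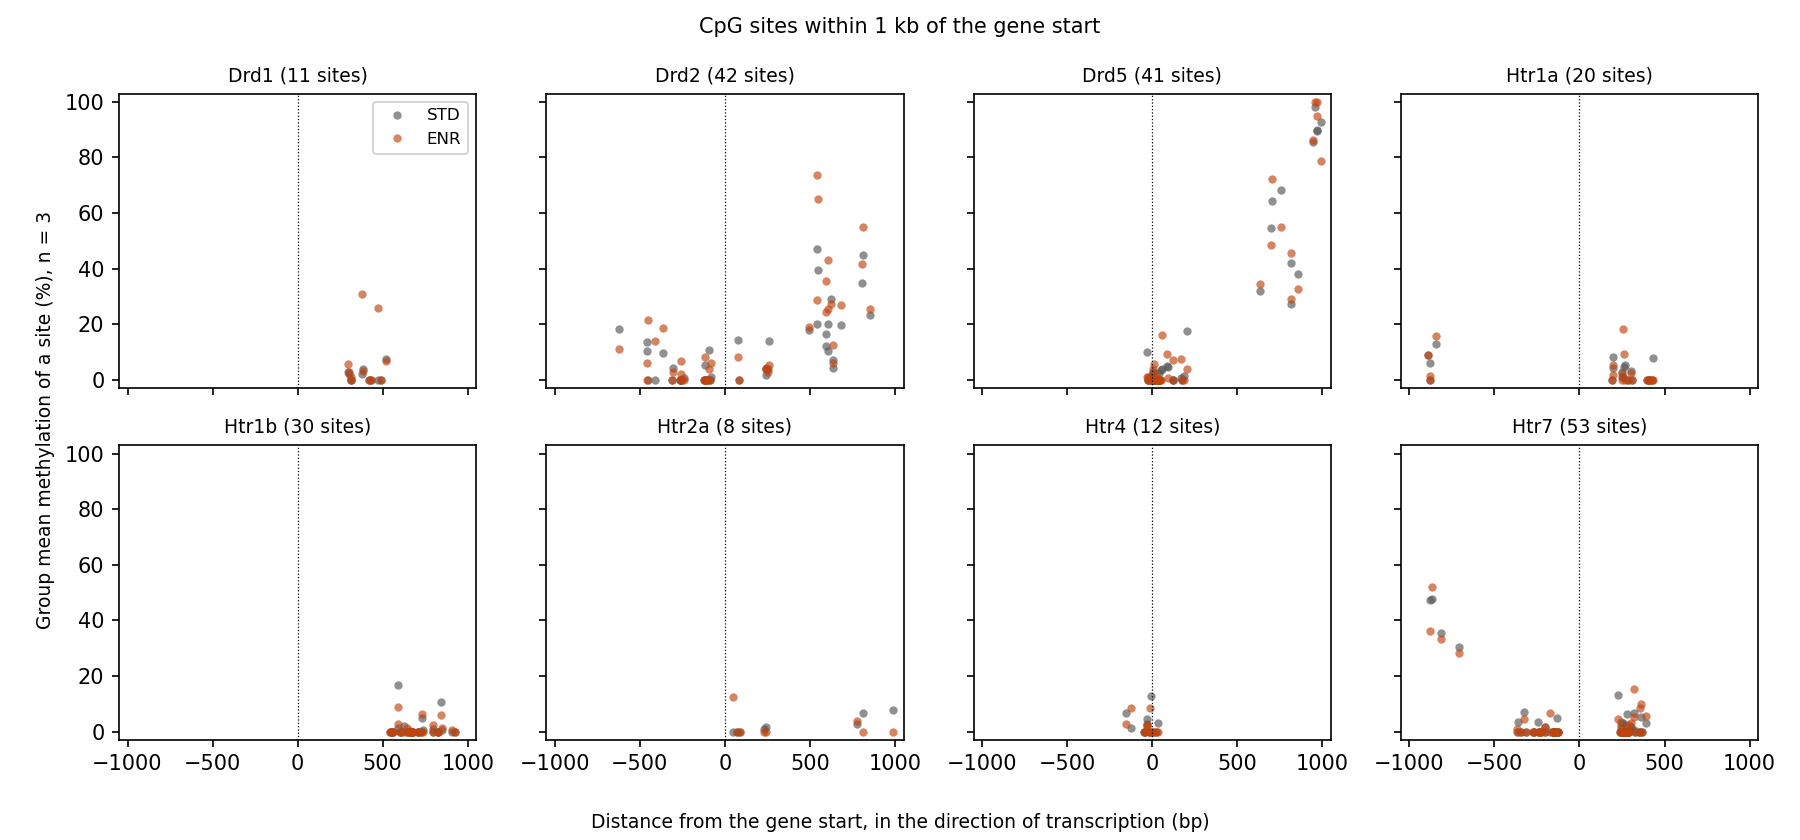
Group mean methylation (%) of each site against its distance from the gene start (bp), for the 8 receptor genes with at least 3 sites within 1 kb of the start, STD and ENR (n = 3 each). Sites at the starts lie near 0, and levels rise with distance inside Drd2 and Drd5 and upstream of Htr7.

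The main question was whether housing changed methylation at these genes. No receptor gene passed the test. With limma on the mean of each gene region, adjusted over 22934 regions by Benjamini-Hochberg, 0 regions were called anywhere (0.0%), and the adjusted p-value was 1.0 for each of the 10 genes. Before adjustment, 886 regions (3.86%) had a p-value under 0.05, Drd1 (limma p = 0.00126) and Drd3 (limma p = 0.032) among them, where the exact permutation p-value was 0.1. The ENR mean was lower in 5 of the genes and higher in 5, while it was lower in 57.6% of all regions. The groups did not overlap in 2 of the 10 genes, against 8.46% of all 22955 regions with at least 3 sites. Of these 2, Drd1 was higher in ENR (background 3.04%) and Drd3 lower (background 5.42%). The median difference over the 10 genes was -0.0502 percentage points, and over all regions it was -0.192. A two-sided exact permutation test of 3 against 3 libraries cannot give a p-value under 0.1.

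Drd1 (chr13:54051183-54055705) encodes the main D1-like receptor, which stimulates adenylyl cyclase. Its 15 sites averaged 8.17%, 7.84% and 10.6% in the STD libraries and 16.8%, 14.4% and 14.8% in the ENR libraries. All ENR libraries lay above all STD libraries. The group means were 8.87% ± 1.5 (SD, n = 3) and 15.3% ± 1.28 (SD, n = 3), a difference of 6.46 percentage points (SE 1.17, limma adjusted p = 1.0, exact permutation p = 0.1).

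Drd1 had sites in 2 places. The 11 sites in the intron, 296 to 522 bp after the start, averaged 0.298%, 2.15% and 2.61% in STD and 4.29%, 4.35% and 12.0% in ENR. The ENR libraries were again all higher, and the third stood apart. This 1 kb tile had the lowest p-value among the tiles of the 10 genes (difference 5.20 percentage points, limma adjusted p = 1.0). The 4 sites in the 3′ UTR, about 4 kb from the start, averaged 29.8%, 23.5% and 32.6% in STD and 51.1%, 42.0% and 22.4% in ENR. There the third ENR library was the lowest of all 6, and the groups overlapped (exact permutation p = 0.4).

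Within the Drd1 intron, 2 sites carried the difference. The CpG shown first in the Drd1 stretch, 475 bp after the start, was at 0 in all STD libraries and at 0, 13.3% and 63.6% in ENR. The last CpG of that stretch was read on both strands. On the minus strand it was at 0, 6.06% and 0 in STD and at 16.0%, 14.3% and 62.1% in ENR, whereas on the plus strand it was at 0, 5.83% and 6.09% in STD and 1.75%, 8.07% and 0 in ENR. The strands of this CpG therefore stood 62.1 percentage points apart in the third ENR library. Without these 2 sites, the other 9 intron sites averaged 1.83% ± 1.41 in STD and 2.15% ± 1.38 in ENR (SD, n = 3 each). The median over the 15 sites, in place of the mean, gave a difference of -0.741 percentage points for Drd1.

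Drd5 (chr5:38319367-38322518), the other D1-like receptor, had no difference beyond the spread of libraries. Its 42 sites averaged 20.7%, 22.6% and 23.7% in STD and 21.2%, 25.7% and 19.8% in ENR (difference -0.105 percentage points, limma adjusted p = 1.0, exact permutation p = 1.0). Levels were low at its start and higher in its coding exon. The 29 sites between -33 and 205 bp from the start averaged 1.92% ± 0.758 in STD and 1.97% ± 0.526 in ENR (SD, n = 3 each). The 13 sites of the coding exon, 632 to 1029 bp after the start, averaged 67.9% ± 3.98 and 67.5% ± 11.1 (SD, n = 3 each).

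Inside the coding exon the values of Drd5 did not rise steadily. Site means over all libraries were 51.6% to 68.3% from 698 to 756 bp after the start. They were 28.2% to 43.9% from 816 to 860 bp, where the stretch shown above begins, and 85.6% to 99.1% from 948 to 991 bp. The first CpG of that stretch, read on both strands, was between 0 and 45.8% on the plus strand in the 6 libraries and between 5.71% and 65.8% on the minus strand. The last site but 1 of the gene, 991 bp after the start, was at 88.9%, 88.9% and 100% in STD and at 79.6%, 78.6% and 77.4% in ENR, without overlap (difference -14.1 percentage points, limma adjusted p = 0.852). The last site of the gene, 1029 bp after the start, was at 100% in every library. All 42 sites also lay within the antisense gene Gm26560.

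Drd2 (chr9:49340627-49408177) encodes the D2 receptor, which inhibits adenylyl cyclase. Its 46 sites averaged 12.4%, 12.0% and 10.95% in STD and 15.6%, 19.3% and 12.1% in ENR. The second ENR library was the highest and the third lay among the STD libraries, so the groups overlapped (difference 3.87 percentage points, SE 1.90, limma adjusted p = 1.0, exact permutation p = 0.2). Of its sites, 26 had a higher mean in ENR, 11 a lower one and 9 the same.

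The difference at Drd2 lay in the first intron. In the 1 kb tile with 15 intron sites, 493 to 854 bp after the start, the libraries averaged 25.1%, 22.4% and 22.1% in STD and 33.7%, 40.4% and 27.8% in ENR. All ENR libraries were above all STD libraries. The difference of 10.8 percentage points did not pass the test (limma adjusted p = 1.0). The 4 sites in a coding exon, 64 kb downstream, averaged 21.0% ± 10.4 in STD and 21.3% ± 13.7 in ENR (SD, n = 3 each). One of them, 64372 bp after the start, was at 28.8%, 23.0% and 33.9% in STD and at 13.8%, 20% and 0 in ENR, without overlap (difference -17.3 percentage points, limma adjusted p = 0.852).

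The values of the Drd2 stretch depended on the strand. The 4 intron CpGs read on both strands, 542 to 636 bp after the start, averaged 22.6%, 11.2% and 21.8% on the plus strand in STD and 37.9%, 50.5% and 30.5% in ENR. On the minus strand of the same CpGs the averages were 22.5%, 17.6% and 7.80% in STD and 16.6%, 34.9% and 16.8% in ENR. The plus strand separated the groups (difference 21.1 percentage points) and the minus strand did not (6.79). The first of these CpGs was at 50.5%, 31.4% and 59.7% in STD and 68.4%, 91.8% and 61.2% in ENR on the plus strand. The CpG 604 bp after the start was at 15.3%, 8.82% and 6.98% in STD and 42.9%, 60% and 26.3% in ENR on the plus strand, and its minus strand was at 23.1%, 25.2% and 11.8% and at 12.3%, 45.6% and 18.9%.

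Drd3 (chr16:43754026-43822932) encodes a D2-like receptor with high affinity for dopamine. Its 19 sites averaged 49.9%, 46.9% and 48.1% in STD and 42.1%, 42.4% and 39.3% in ENR. All ENR libraries lay below all STD libraries. The group means were 48.3% ± 1.48 (SD, n = 3) and 41.3% ± 1.70 (SD, n = 3), a difference of -7.01 percentage points (SE 2.56, limma adjusted p = 1.0, exact permutation p = 0.1). A lower mean in ENR was found at 17 of the 19 sites and a higher one at 0, and the other 2 sites did not vary between the groups. Some of the 17 were at 100% in all STD libraries, where ENR could not be higher, and the smallest difference was -0.0298 percentage points. Neighbouring sites share fragments, so the 17 are not separate findings. Over the 336 sites of the 10 genes, the ENR mean was lower at 35.4% and higher at 32.4%.

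Single stretches of Drd3 went the same way to unequal extents. The 8 sites of the intron stretch, about 46 kb from the start, averaged 30.5%, 19.2% and 23.6% in STD and 15.0%, 16.5% and 11.2% in ENR, without overlap (difference -10.2 percentage points, limma adjusted p = 1.0). All 8 had a lower mean in ENR. The site farthest apart, 46193 bp after the start, was at 59.1%, 40.6% and 42.1% in STD and at 16.7%, 0 and 47.4% in ENR, so 1 ENR library lay above 2 of the STD libraries there. On the plus strand of the same CpG the values were 25.3%, 13.0% and 15.6% and 23.0%, 15.4% and 0.

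The other sites of Drd3 were near full methylation or low. The 3 sites 8467 to 8515 bp after the start, in a coding exon and the intron that follows, averaged 94.0%, 100% and 100% in STD and 96.8%, 84.2% and 85.2% in ENR (difference -9.27 percentage points, limma adjusted p = 1.0). One ENR library lay above an STD library there. The 2 sites near 60 kb averaged 99.5% ± 0.931 in STD and 93.3% ± 8.35 in ENR (SD, n = 3 each). The 2 sites near 48 kb were at 3.15% ± 2.30 and 3.14% ± 2.31 (SD, n = 3 each).

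Drd4 (chr7:141292006-141296464), the third D2-like receptor, was almost unmethylated. Its 41 sites averaged 2.62%, 1.79% and 2.98% in STD and 1.88%, 4.45% and 2.53% in ENR (difference 0.492 percentage points, limma adjusted p = 1.0, exact permutation p = 0.7), and the groups overlapped. The CpG that opens the Drd4 stretch, in an intron 2552 bp after the start, was among its most methylated sites in STD. It was at 21.7%, 14.3% and 21.3% in STD and at 0, 0 and 2.86% in ENR. It had the lowest p-value among the sites of the 10 genes (difference -18.1 percentage points, limma adjusted p = 0.852). The other CpG of that stretch was at 11.1%, 4.0% and 3.23% in STD and at 0 in all ENR libraries. The third intron site of Drd4, 2641 bp after the start, differed by 1.06 percentage points, and over the 3 intron sites the libraries averaged 10.9%, 6.10% and 20.5% in STD and 0, 7.69% and 6.67% in ENR, with overlap (exact permutation p = 0.3). The 37 coding-exon sites of Drd4 averaged 1.65%, 1.49% and 1.19% in STD and 1.86%, 4.31% and 2.26% in ENR. There all ENR libraries lay above all STD libraries (difference 1.37 percentage points, exact permutation p = 0.1).

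The inhibitory serotonin receptors were low throughout. Htr1a (chr13:105443639-105448122), the autoreceptor of serotonin neurons that is also found on hippocampal neurons, averaged 4.18%, 3.15% and 2.87% in STD and 5.22%, 2.45% and 2.54% in ENR over 30 sites. Htr1b (chr9:81628291-81633828), the receptor on axon terminals, averaged 0.927%, 2.29% and 0.665% in STD and 1.69%, 1.52% and 0.258% in ENR over 31 sites. The libraries of both groups were mixed in each gene. The differences were 0.00432 percentage points for Htr1a (exact permutation p = 1.0) and -0.139 for Htr1b (exact permutation p = 0.9), with a limma adjusted p-value of 1.0 for both.

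The 16 sites of the Htr1a 5′ UTR averaged 2.38% ± 0.714 in STD and 2.45% ± 1.11 in ENR (SD, n = 3 each), and its 6 coding-exon sites 1.20% ± 2.08 and 0.602% ± 0.082 (SD, n = 3 each). The 4 sites in the 3′ UTR were at 7.23% ± 2.83 and 8.33% ± 4.98 (SD, n = 3 each). One of them, 2837 bp after the start, was at 1.37%, 0.840% and 2.33% in STD and at 10.5%, 17.7% and 7.14% in ENR, without overlap (difference 10.3 percentage points, limma adjusted p = 0.852). All 31 sites of Htr1b lay 542 to 1004 bp after its start and within the antisense gene D430036J16Rik, and 19 of them were at 0 in every library.

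Htr2a (chr14:74640840-74709494), which signals through phospholipase C, averaged 22.1%, 22.9% and 18.9% in STD and 22.7%, 20.8% and 16.5% in ENR over 27 sites. The third library of each group was its lowest and the groups overlapped (difference -1.28 percentage points, limma adjusted p = 1.0, exact permutation p = 0.6). Its 5′ UTR was nearly unmethylated (1.53% over the first 5 sites and all 6 libraries). An intron stretch 37 kb from the start was at 89.2% ± 8.95 in STD and 88.8% ± 6.93 in ENR (SD, n = 3 each). The 7 sites of the 3′ UTR were at 20.8% ± 4.77 and 18.1% ± 8.55 (SD, n = 3 each). An intron site 2400 bp after the start was at 2.33%, 3.70% and 0 in STD and at 9.09%, 8.33% and 10.4% in ENR, without overlap (difference 7.27 percentage points, limma adjusted p = 0.852).

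Htr4 (chr18:62324204-62496577) and Htr7 (chr19:35958734-36057507) encode the serotonin receptors that stimulate adenylyl cyclase. Htr4 averaged 40.6%, 38.0% and 38.3% in STD and 38.6%, 35.1% and 35.3% in ENR over 22 sites, with overlap (difference -2.66 percentage points, SE 2.37, limma adjusted p = 1.0, exact permutation p = 0.3). Htr7 averaged 16.7%, 16.8% and 18.3% in STD and 18.6%, 17.4% and 16.5% in ENR over 63 sites (difference 0.209 percentage points, limma adjusted p = 1.0, exact permutation p = 0.8). Over all its sites the libraries of both groups were mixed in Htr7.

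Both genes were low at the start and high in the body. In Htr4, the 12 sites around the start were at 2.59% ± 0.75 in STD and 1.996% ± 2.13 in ENR (SD, n = 3 each), and the 10 sites in the body at 82.6% ± 3.21 and 77.5% ± 5.17 (SD, n = 3 each). In Htr7, the 53 sites near the start were at 4.32% ± 0.604 and 4.16% ± 0.505, and the 10 intron sites at 85.9% ± 2.58 and 88.1% ± 5.45 (SD, n = 3 each). Upstream of Htr7, 4 sites between -877 and -706 bp from the start had means of 40.2% ± 4.48 and 37.5% ± 12.8, and the 22 upstream sites nearer the start had means of 0.923% ± 0.445 and 0.617% ± 0.442 (SD, n = 3 each, STD first).

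The 27 sites of Htr7 from 225 to 390 bp after the start had means of 1.77% ± 0.281 and 2.10% ± 0.601 (SD, n = 3 each, STD first), with overlap (exact permutation p = 0.4). Of these, the 8 sites in the 5′ UTR had means of 2.65% ± 0.866 and 0.853% ± 1.48, also with overlap (exact permutation p = 0.3). The 19 sites in the coding exon averaged 1.22%, 1.52% and 1.45% in STD and 2.001%, 3.45% and 2.43% in ENR, so all ENR libraries were higher (difference 1.23 percentage points, exact permutation p = 0.1). One of these sites, 319 bp after the start, was at 4.0%, 9.09% and 6.67% in STD and at 14.9%, 17.7% and 13.5% in ENR. An intron site 92302 bp after the start was at 87.2%, 86.8% and 89.2% in STD and at 93.1%, 95.7% and 92.0% in ENR. Neither site passed the test (limma adjusted p = 0.852).

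In Htr4, 2 intron sites differed in opposite directions. The site 47422 bp after the start was at 91.2%, 48.5% and 78.4% in STD and at 100% in every ENR library (difference 27.3 percentage points, limma adjusted p = 0.852). The site 54812 bp after the start was at 66.7%, 71.9% and 63.6% in STD and at 54.6%, 41.7% and 30.0% in ENR (difference -25.3 percentage points, limma adjusted p = 0.852). The groups did not overlap at either site. The 3 sites from 103073 to 103156 bp averaged 90.1%, 82.9% and 84.5% in STD and 74.8%, 78.7% and 80.3% in ENR, also without overlap (limma adjusted p = 1.0).

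**Figure D3:**
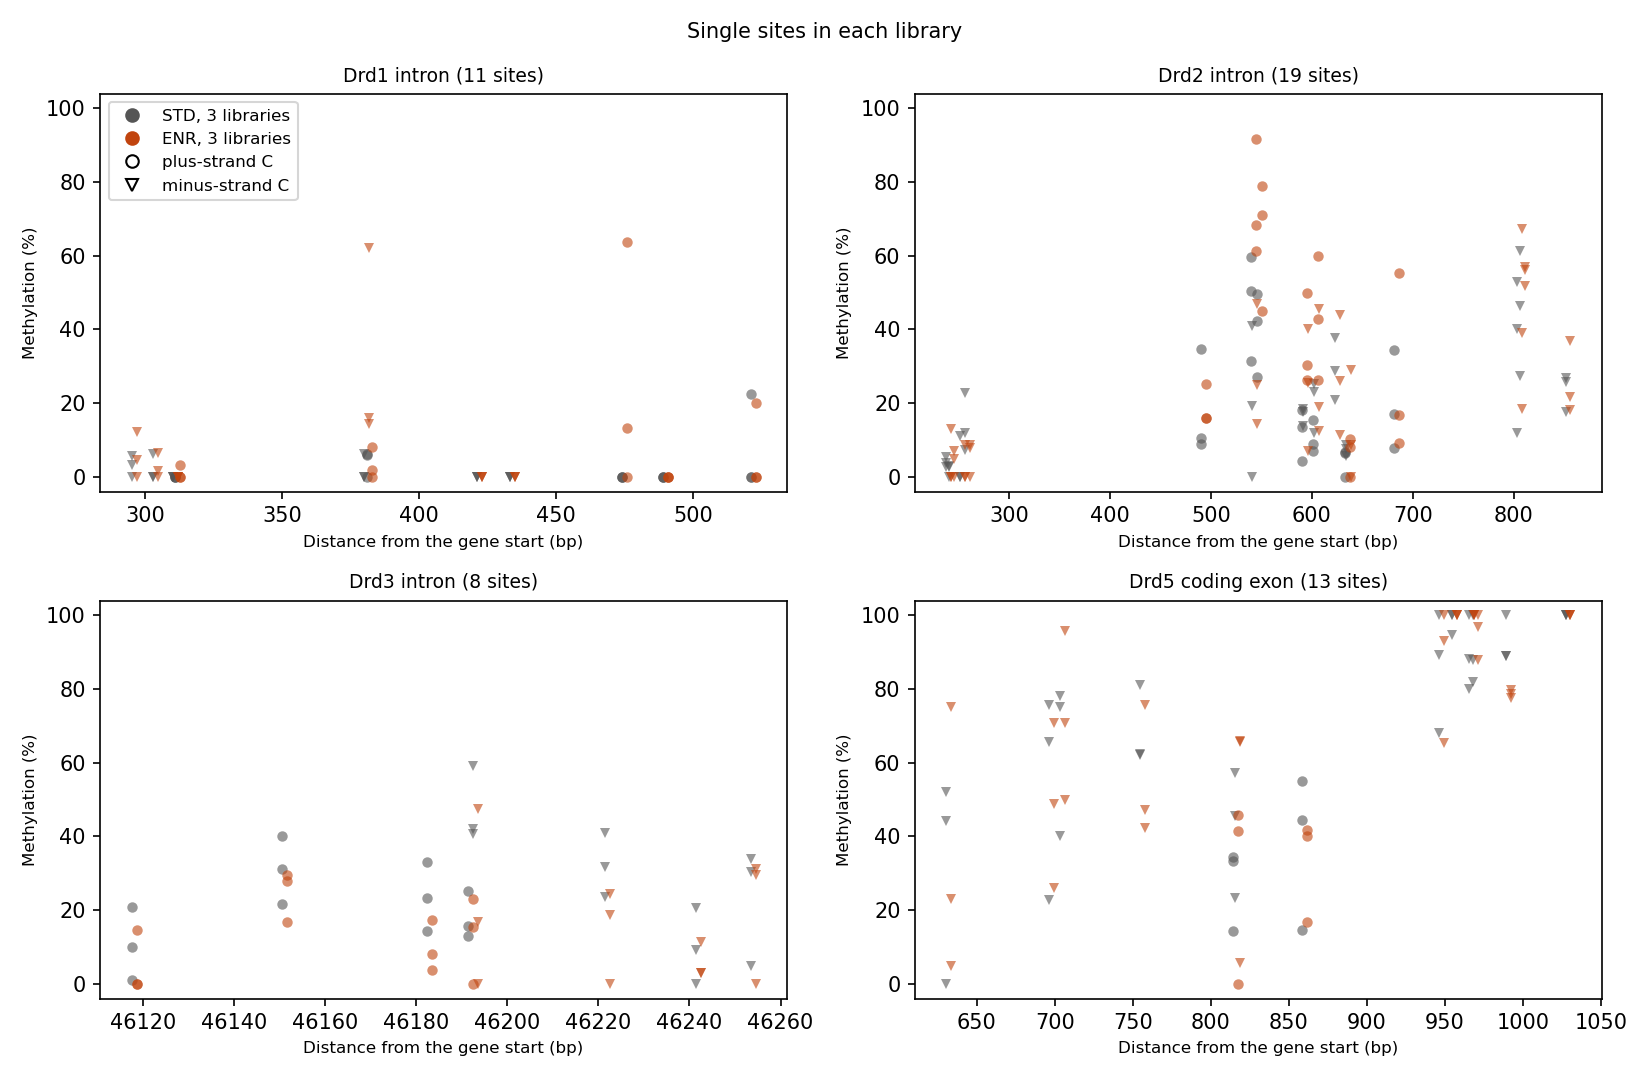
Methylation (%) of single sites in every library against the distance from the gene start (bp) in introns of Drd1, Drd2 and Drd3 and in the coding exon of Drd5; circles are cytosines on the plus strand and triangles those on the minus strand. In the Drd1 intron 2 values of the third ENR library stand above 60%, and in Drd5 values lie between 0 and 95.7% up to 860 bp and at 65.3% or more from 948 bp on.

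Counted over single sites, the group means stood more than 25 percentage points apart at 8 of the 336 sites (2.38%, against 1.94% of all sites). ENR was higher at 6 of them (2 in Drd1, 3 in Drd2, 1 in Htr4), which is 1.79% of the sites against 0.706% of all sites. It was lower at 2 (Drd3 and Htr4), or 0.595% against 1.23%. Groups did not overlap at 14 sites (4.17%, against 3.99%), of which 9 were higher in ENR (2.68%, against 1.65%) and 5 lower (1.49%, against 2.34%). Both held at 5 sites (1.49%, against 0.81%), namely the minus-strand site of Drd1, the plus-strand sites of Drd2 at 542 and 604 bp and the Htr4 sites at 47422 and 54812 bp. Where methylation was between 10% and 90%, 8 of 75 sites were over 25 percentage points (10.7%, against 7.7%) and groups did not overlap at 10 (13.3%, against 8.79%).

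No single site or tile passed the test. Of 228 sites that varied, 0 were called by limma (0.0% of 615152 sites tested), and 5 had an unadjusted p-value under 0.05 (2.19%, against 2.68%). These 5, named after their values were seen, lay in Drd4, Drd5, Htr1a, Htr2a and Htr4, are the ones given above, and were lower in ENR in Drd4 and Drd5 and higher in the other 3. Of 27 tiles tested, 0 were called (0.0% of 72222), 2 had an unadjusted p-value under 0.05 (7.41%, against 3.98%), and the groups did not overlap in 4 of 28 (14.3%, against 8.86%).

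**Figure D4:**
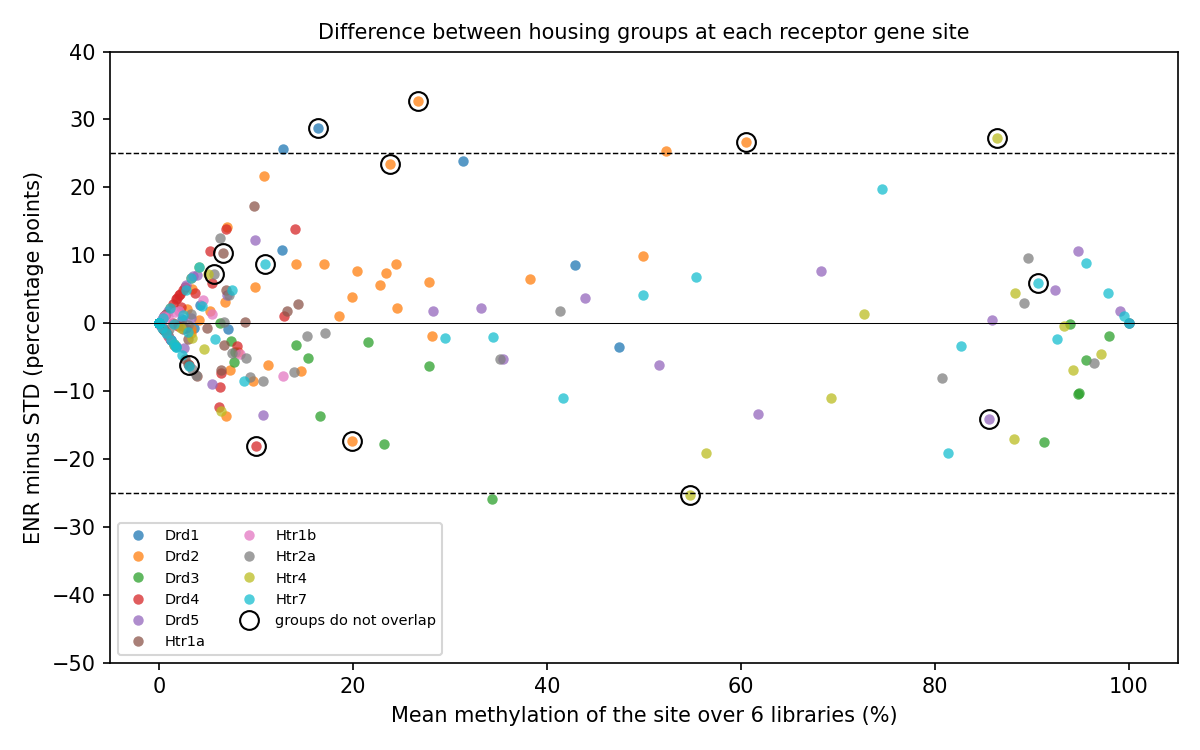
Difference of group means (ENR minus STD, percentage points) against the mean methylation (%) of each of the 336 sites, coloured by gene; circles mark the 14 sites at which the groups do not overlap and dashed lines mark 25 percentage points. Of the 8 sites beyond the dashed lines, 6 lie above and 2 below.

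CpGs read on both strands give a measure of how far 2 readings of 1 CpG in 1 library can differ. There were 42 such CpGs in the 10 genes, and the strands differed by 5.84 percentage points on average, against 5.01 over all 132547 such CpGs. Where the CpG mean was between 10% and 90% (8 CpGs), the average was 17.5 percentage points, and it was also 17.5 over all such CpGs. Differences over 25 percentage points occurred in 14 of 252 readings (5.56%, against 4.45%).

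Genes that act with these receptors gave 0 calls as well (adjusted p = 1.0 in each). Of 9 other serotonin receptor genes, 7 had at least 3 sites, with a lower ENR mean in 4 and a higher one in 3. Htr6 (difference 1.76 percentage points) and Htr1d (-1.47) had the lowest p-values of this list. Of 14 genes for synthesis, transport and breakdown of these transmitters, 12 had at least 3 sites, with 5 lower and 7 higher. Groups did not overlap in 0 of the 7 and in 1 of the 12, against 8.46% of all regions. The 1 was Dbh (5 sites), which turns dopamine into noradrenaline. It was at 56.5%, 61.2% and 52.7% in STD and at 67.4%, 69.6% and 63.5% in ENR (difference 10.1 percentage points). Tph1 (6 sites), a tryptophan hydroxylase, was at 0 in STD and at 5.556%, 5.0% and 0 in ENR (difference 3.52 percentage points).

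Of 20 genes for signalling behind the receptors, 19 had at least 3 sites, with 12 lower and 7 higher. Caly, a vesicle protein of neurons, was at 12.97%, 12.95% and 10.03% in STD and at 14.3%, 17.9% and 16.7% in ENR, without overlap (difference 4.34 percentage points). Gnai3, an inhibitory G protein subunit, was at 2.94%, 1.96% and 2.77% in STD and at 0.918%, 1.71% and 1.62% in ENR, also without overlap (difference -1.14 percentage points). These were the 2 of the 19 genes without overlap, against 8.46% of all regions. The median difference of the 10 receptor genes was -0.0502 percentage points, that of the other serotonin receptors -0.172, that of synthesis, transport and breakdown 0.424 and that of signalling -0.147.

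The libraries also differed outside these genes. Over all sites with a mean between 20% and 80%, the third library of each group was the lowest (43.6% against 52.4% and 51.7% in STD, and 37.6% against 51.9% and 50.9% in ENR). The mean of the 10 gene means was 17.8%, 17.4% and 17.5% in STD and 18.4%, 18.4% and 16.0% in ENR. Gene regions of 5 astrocyte markers averaged 23.7%, 23.8% and 23.4% in STD and 22.0%, 21.2% and 19.1% in ENR, and all 5 had a lower mean in ENR. The list means of granule neurons (9.45% and 9.23%, group means), oligodendrocytes (54.2% and 50.3%), microglia (57.3% and 53.8%) and interneurons (26.7% and 24.4%) overlapped between groups. A lower mean in ENR was found in 4 of 5 granule neuron, 4 of 5 oligodendrocyte, 4 of 5 microglia and 3 of 4 interneuron regions. Over all gene regions the share with a lower mean in ENR was 57.6%. Over the 5 marker lists, the groups did not overlap for Calb1 (granule neurons, difference -1.16 percentage points), Mobp (oligodendrocytes, -15.0), Slc1a3 and Aldh1l1 (astrocytes, -2.46 and -3.67) and P2ry12 (microglia, -4.99), all lower in ENR (5.42% of all regions). Their part in the values of the receptor genes was not tested, and the tissue label could not be checked against marker RNA.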

How the data were processed

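DNA methylation was measured by RRBS in 6 libraries (3 STD and 3 ENR, 1 mouse each). Per the submitters' processing notes, reads were handled with Trim Galore 0.4.0 and cutadapt 1.8.1, which took 2 further bases from reads with adapter, aligned to mm10 with Bismark 0.16.1 and summarised with methylKit 1.5.2. The authors kept cytosines with at least 10 reads and dropped the most deeply covered ones. The deposited values are percent methylation at 890041 CpG sites, with 0 missing values and 0 unused columns. Read counts were not used here, so the read-based test of the study, a logistic model and a coverage minimum were not run, and the number of reads behind a percentage is unknown.

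Sites were assigned to GENCODE M21 genes (1 kb upstream to gene end). Means over gene regions and over 1 kb tiles with at least 3 sites, and single sites that varied, were compared between groups with limma 3.58.1 in R 4.3.3 (eBayes with a variance trend) on the percent scale. P-values were adjusted by Benjamini-Hochberg over all features of a kind, and calls needed an adjusted p-value under 0.05 (for sites also a difference over 25 percentage points). Single values were compared by two-sided exact permutation over the 20 regroupings. All 10 members were named, with the sites over 25 percentage points whose groups did not overlap, the 3 tiles with the lowest p-values and the 2 genes with the lowest p-values in each pathway list. Members and lists were chosen with earlier results of these data known. Stretches of sites at most 300 bp apart were added after the data were seen. Sequences were read from the RefSeq copy of GRCm38.p6. Alternatives are given in the closing section.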

Additional observations from a re-analysis of the deposited data

How the results depend on the processing

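Under the arcsine scale, no variance trend, quantile normalization, the replicate block and each library left out, limma called 0 of the 10 gene regions, 0 sites and 0 tiles (smallest adjusted p-values 0.88, 0.795 and 0.92). Counts with an unadjusted limma p-value under 0.05 moved. They were 1 to 3 for gene regions, 0 to 3 for tiles and 3 to 11 for sites. The 11 sites, of 228, came on the arcsine scale, against 22578 of all 615152 sites. Whether replicate numbers paired the mice was not settled by correlations this small. Deviations of same-numbered libraries correlated at 0.0552, 0.0319 and 0.125. STD libraries 1 and 3 correlated best with the ENR library of their own number, and STD library 2 with ENR library 1 (0.041). With the replicate block the smallest adjusted p-values were 0.88, 0.882 and 0.953, the mean difference over the 10 genes stayed at -0.0153 percentage points, and each gene's difference was the same by construction.

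Drd2, Drd3 and Htr4 kept their sign under every alternative tried, but not their size: apart from libraries left out, the difference ranged from 0.333 to 12.3 for Drd2, from -13.2 to -2.9 for Drd3 and from -13.6 to -0.592 for Htr4. Drd1 kept it except for the median over sites (-0.741). Near-zero differences turned under other choices. Sites within 1 kb of the start gave -7.32 for Drd4 (1 site), -0.0329 for Htr1a and -0.166 for Htr7, and sites farther away gave 3.47 for Htr1b (1 site). Quantile normalization gave 0.348 for Drd5, centred libraries gave 0.397 for Drd5 and 0.363 for Htr1b, and averaged strands gave -0.217 for Htr1a. Leaving out each library gave 5.73 to 7.32 for Drd1, 2.04 to 5.68 for Drd2, -7.69 to -6.03 for Drd3, -0.258 to 1.03 for Drd4, -1.84 to 1.10 for Drd5, -0.904 to 0.483 for Htr1a, -0.454 to 0.361 for Htr1b, -2.63 to 0.478 for Htr2a, -3.81 to -1.82 for Htr4 and -0.335 to 0.738 for Htr7. Sites with a mean of 20% to 80% gave no value for Drd4, Htr1a and Htr1b.

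The mean difference over the 10 genes was -1.66 with medians over sites. It turned positive with quantile normalization (0.471), centred libraries (0.486) and sites over 1 kb from the start (0.241), and was -0.445 to 0.799 with 1 library left out. Of 8 sites with group means more than 25 percentage points apart, a limit of 40 left 0, and leaving out 1 library gave 4 to 10 (4 without STD replicate 2, 5 without ENR replicate 2). The share of these sites that were lower in ENR was 25%. It has no value at the limit of 40, where no site was left, and was 50% with group medians (6 sites), 0% after quantile normalization (7 sites) and 20% to 40% with 1 library left out. The causes were not tested. Without read numbers, a percentage from few reads weighs as much as one from many.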
